A study of Mus musculus with 12 samples.

Results

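The 100 most abundant long non-coding RNA (lncRNA) transcripts of the mouse thymus were the 100 rows with the largest sum of estimated counts over 6 libraries, out of 30683 lncRNA rows in the deposited table. The thymuses came from male wild type C57BL/6 mice at 2 weeks (2W), 6 weeks (6W) and 3 months (3M), with 2 biological replicates per age, no treatment and no altered allele in any group. The study set 6W against 2W for the development of the organ and 3M against 6W for its early decline. RNA of the whole organ was depleted of ribosomal RNA and sequenced as strand-specific libraries, so a level is an average over thymocytes and stroma. In such bulk RNA, fewer cells of a type and less RNA per cell cannot be told apart.

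The thymus is the organ in which T cells mature. Immature thymocytes rearrange their receptor genes there and are selected on epithelial cells, and the organ shrinks and gains fat as the animal ages. LncRNAs are transcripts without a long open reading frame, many of them kept in the nucleus, where some hold splicing factors, chromatin proteins or other RNAs in place. Others act in the cytoplasm or are the spliced remainder of genes that host small nucleolar RNAs or miRNAs. LncRNA levels in a tissue are typically very uneven, with few transcripts that rival abundant mRNAs.

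The tissue label was checked against marker genes in the mRNA counts of the same libraries. Rag1, a component of the recombinase of immature lymphocytes, stood at 7641 to 10711 counts per 1000000 (CPM), Cd3e of the T cell receptor complex at 345 to 493 CPM and Foxn1, the transcription factor of thymic epithelium, at 14.1 to 26.9 CPM. No marker of the 10 cell type lists examined was at 0 in every library. The lncRNA table held 1238252 to 1594491 counts per library, and mRNA counts were 16519753 to 22553481. Some libraries of different ages were as alike as replicates. Over the 100 members, the Spearman correlation across transcripts was 0.94 for 2W replicate 2 with 3M replicate 1, 0.93 for 2W replicate 1 with each 6W library, and 0.92 for 3M replicate 2 with each 6W library. For libraries of the same age it was 0.85 at 2W, 0.98 at 6W and 0.85 at 3M. These values are descriptions.

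The identity of the members was given by transcript identifiers. No row of the lncRNA table carried a gene symbol, and the reference tables used here do not list these transcripts, so the members are named by rank and identifier. Annotated Ensembl transcripts made up 94 of the 100. The other 6 were assembled transcripts, whose identifiers start with TCONS and which made up 2.47% of the table. A description was present for 5 of the 6 assembled members, each taken from a similar protein in a sequence database. The text of rank 7, TCONS_00006972, names a predicted zinc finger protein and is shared by 14 rows of the table. That of rank 19, TCONS_00092311, reads only "unnamed protein product". Such a description is the best match of the sequence and not evidence of a protein.

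Transcript lengths were recovered from the ratio of counts to FPKM (fragments per kilobase of transcript and per 1000000 fragments). The members were long for lncRNA rows. Their lengths ranged from 281 to 93042 nt with a median of 2713 nt, against a median of 822 nt over the 15143 rows for which a length could be computed. Of the members, 15 were under 1000 nt, 79 were between 1000 and 10000 nt and 6 were over 10000 nt, whereas 58.3% of all rows with a length were under 1000 nt and 0.271% were over 10000 nt. Counts grow with transcript length, so the ranking by counts draws in long transcripts.

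The counts were concentrated in very few transcripts. Rank 1, ENSMUST00000192833, is 3329 nt long and took 33.1% of all lncRNA counts over the 6 libraries. Rank 2, ENSMUST00000172812, is 6983 nt long and took 13.8%. Rank 3, ENSMUST00000134040, followed with 113173 counts, and only 13 members exceeded a sum of 50000. The first 5 rows were enough for 50% of all lncRNA counts, 120 rows for 75%, 894 rows for 90% and 1882 rows for 95%. A count of 0 in every library was found in 15502 rows of the table. At the edge of the rule, rank 99 had 6473 counts and rank 100 had 6293, while the first rows left out had 6231 and 6192, so the limit cuts a continuous slope.

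**Figure D1:**
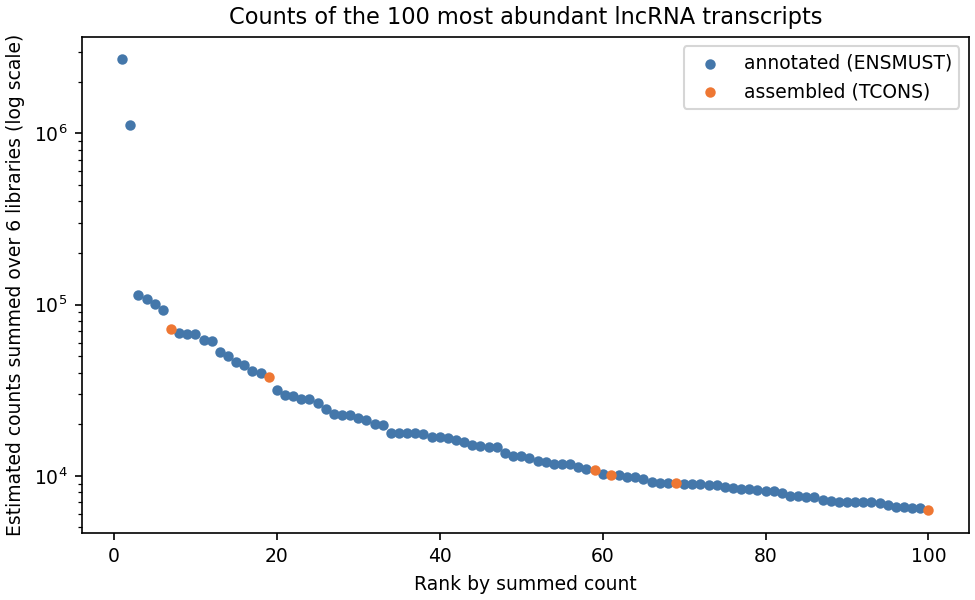
Estimated counts summed over the 6 libraries (y axis, log scale) against the rank by that sum (x axis) for the 100 members, with annotated transcripts in blue and assembled transcripts in orange. Ranks 1 and 2 lie far above a slope that runs from 113173 counts at rank 3 to 6293 at rank 100.

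Per length the order was different. Rank 1 stayed first with a mean of 6539 FPKM, above every one of the 77525 rows of the mRNA table. The second highest FPKM belonged to rank 5, ENSMUST00000226420, a transcript of 281 nt with 2862 FPKM that only 4 mRNA rows exceeded. Rank 3, of 661 nt, had 1384 FPKM and rank 2 had 1325 FPKM, each exceeded by 10 mRNA rows. Ranks 9 and 6, ENSMUST00000092620 of 635 nt and ENSMUST00000071641 of 1019 nt, came next with 849 and 729 FPKM. Apart from ranks 1 and 2, the members that stood highest per length were short.

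Long members carried many counts at a modest level. Rank 17, ENSMUST00000185789, spans 93042 nt and had 40724 counts but a mean of 3.65 FPKM, which placed it 853rd among all lncRNA rows. Rank 16, ENSMUST00000173672, of 20774 nt, had 17.4 FPKM, rank 19, of 29480 nt, had 10.6 FPKM, and rank 7, of 16179 nt, had 36.1 FPKM. Ranking all rows by FPKM in place of counts kept 65 of the 100 members. The 35 members it dropped had a median length of 4568 nt, and the 35 rows it brought in had a median length of 661 nt, 31 of them under 1000 nt.

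The remaining members among the first 20 were annotated transcripts of 656 to 8300 nt. Ranks 4, 8, 10 and 11, which are ENSMUST00000180798, ENSMUST00000132010, ENSMUST00000144081 and ENSMUST00000192863, are 3086 to 6621 nt long and had means of up to 180 FPKM. Ranks 12, 13, 14 and 15, which are ENSMUST00000222575, ENSMUST00000209626, ENSMUST00000223888 and ENSMUST00000174808, are 656 to 2313 nt long and had 179 to 583 FPKM. Ranks 18 and 20, ENSMUST00000153581 and ENSMUST00000236930, had 39.5 and 139 FPKM.

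The members' share of the lncRNA counts was close to constant over age. It was 73.4% and 71.7% in the 2W libraries, 72.2% and 74.4% at 6W, and 72.8% and 76.4% at 3M. The means were 72.6% ± 1.22, 73.3% ± 1.60 and 74.6% ± 2.59 (SD, n = 2), and the libraries of the 3 ages overlapped. The 95% Wilson intervals of these shares reached at most 0.0789 percentage points to either side, which covers counting error only. Of all lncRNA and mRNA counts together, the members took 5.12% and 4.91% at 2W, 4.26% and 4.72% at 6W, and 5.10% and 5.21% at 3M. On this scale both 6W libraries were below all others. All lncRNA rows together took 6.97% and 6.85%, 5.90% and 6.34%, and 7.01% and 6.82%, again with both 6W libraries lowest.

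Much of the movement in that share lay in rank 1. It took 33.2% and 29.6% of the lncRNA counts at 2W, 30.5% and 35.5% at 6W, and 27.8% and 40.0% at 3M. The lowest and the highest value of all 6 libraries were thus the replicates of 3M. With rank 1 taken out of the total, the other 99 members held 60.3% and 59.8% at 2W, 60.0% and 60.4% at 6W, and 62.3% and 60.8% at 3M. The highest value was that of 3M replicate 1, where rank 2 took 24.2% of these counts against 19.1% to 20.7% elsewhere. With ranks 1 and 2 taken out of the total, the other 98 members held 50.1% and 50.2% at 2W, 50.5% and 50.5% at 6W, and 50.3% and 50.5% at 3M. The share of these 98 members moved by less than 1 percentage point over the libraries.

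**Figure D2:**
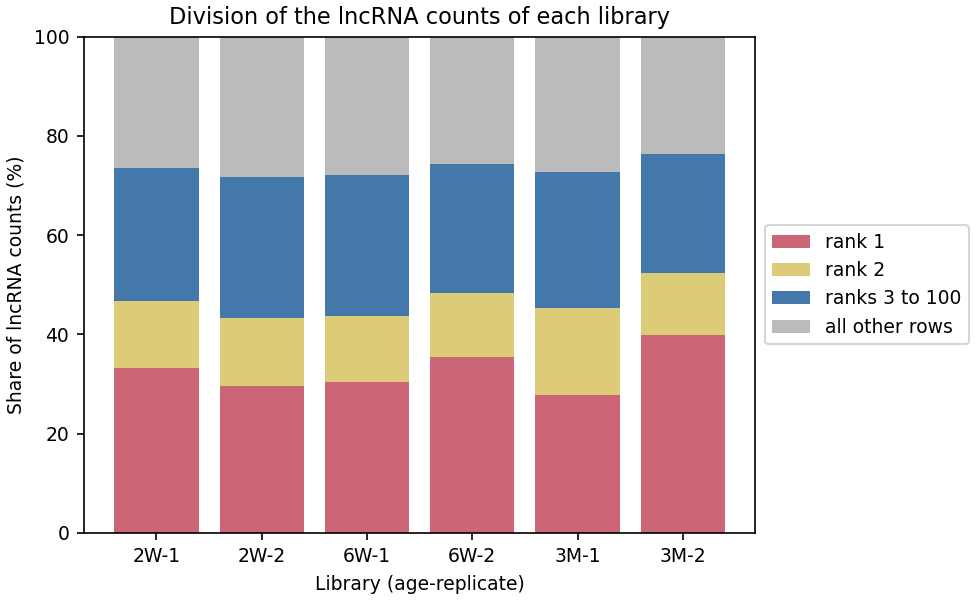
Share of the lncRNA counts of each library (y axis, percent) held by rank 1, rank 2, ranks 3 to 100 and all other rows, stacked, for the 6 libraries (x axis). Rank 1 varied from 27.8% to 40.0%, with both extremes at 3M, and the 100 members together from 71.7% to 76.4%.

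Rank 1 showed no age course beyond its replicate spread. Its levels, in CPM scaled by the trimmed mean of M-values (TMM) over lncRNA rows, were 331546 and 274918 at 2W, 300015 and 375244 at 6W, and 268675 and 461109 at 3M. The libraries of all 3 ages overlapped, and the lowest and the highest were both from 3M. The log2 fold change was 0.16 (SE 0.29) for 6W against 2W, 0.11 (SE 0.29) for 3M against 6W and 0.27 (SE 0.29) for 3M against 2W, with adjusted p = 0.919, 0.946 and 0.860. The 95% interval of the last was -0.45 to 0.99, which does not reach a 2-fold difference. The direction of each of these differences turned when some single libraries were left out, down to -0.34 for 3M against 6W and -0.18 for 3M against 2W without 3M replicate 2.

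Rank 2 was steadier. Its levels were 136427 and 125972 CPM at 2W, 130836 and 135949 CPM at 6W, and 168867 and 143405 CPM at 3M. On this scale both 3M libraries lay above the other 4. As a share of the lncRNA counts they did not, with 17.5% in 3M replicate 1 but 12.4% in 3M replicate 2, the lowest of the 6, and 1753 and 1213 FPKM against 1363 and 1332 FPKM at 2W. The log2 fold change of 3M against 2W was 0.25 (SE 0.14, adjusted p = 0.677), and that of 6W against 2W was 0.02 (SE 0.14), so the position of the 3M libraries did not pass the test.

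The members as a set varied less than other lncRNA rows. In 43 members the highest library was less than 1.5 times the lowest, in 33 it was 1.5 to 2 times, and in 24 it was 2 times or more or a library was at 0. The median ratio was 1.55. The narrowest was rank 100, TCONS_00128945, at 1.15. The median biological coefficient of variation was 0.199 over the members against 0.378 over the 4647 lncRNA rows tested. The members hold the highest counts of the table by construction, and dispersion falls with counts, so this is a description only.

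From 2W to 6W, no member was called by edgeR, and rank 3 alone by DESeq2. The quasi-likelihood test of edgeR with Benjamini-Hochberg adjustment gave 0 of 100 members an adjusted p under 0.05, as for all rows tested (0.00%). At an unadjusted p under 0.05 there were 13 members, against 8.56% of all rows. The study set a threshold of an unadjusted p under 0.05 and more than a 2-fold difference, for DESeq results of circRNAs, miRNAs and mRNAs. Applied here to the edgeR results of lncRNA rows, it was met by none of the members and by 5.16% of all rows. The count was 6 without 2W replicate 1, 2 without 2W replicate 2 and 1 without 6W replicate 1, against 7.67%, 4.78% and 4.20% of all rows in the same fits. DESeq2 gave rank 3, and no other member, an adjusted p under 0.05 (1 of 100, against 1.10% of all rows), and edgeR without a filter on low counts gave it to 4 members (1.64% of all rows in that fit).

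Rank 3, the short transcript with 1384 FPKM, had the smallest p of this comparison. It stood at 13099 and 12008 CPM at 2W, 18232 and 17353 CPM at 6W, and 11416 and 12321 CPM at 3M. The 6W libraries were above the other 4, which lay close together. The log2 fold change was 0.50 (SE 0.13, adjusted p = 0.473 in edgeR) for 6W against 2W and -0.58 (SE 0.13, adjusted p = 0.381) for 3M against 6W. The other members with an unadjusted p under 0.05 had absolute log2 fold changes of 0.38 to 0.99. Rank 31, of 281 nt, differed by 0.86 (SE 0.25) and rank 87, of 980 nt, by 0.87 (SE 0.26), both with adjusted p = 0.530.

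Members that were lower at 6W than at 2W included ranks 14, 17 and 21. Rank 14 stood at 6246 and 6786 CPM at 2W, 4519 and 4806 CPM at 6W, and 8264 and 6708 CPM at 3M. The 6W libraries of this member were below the other 4. Its log2 fold change of 6W against 2W was -0.48 (SE 0.16, adjusted p = 0.553), and rank 21 had the same value with an SE of 0.15 (adjusted p = 0.550). Rank 17, the transcript of 93042 nt, had -0.44 (SE 0.16, adjusted p = 0.576).

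Over the 100 members the log2 fold changes of 6W against 2W ranged from -0.99 to 0.92 with a median of -0.06, and 46 were above 0. The median over all rows tested was 0.01. In 80 members the absolute value was under 0.5, against 54.8% of all rows. The median 95% interval reached 0.476 to either side, and in 70 members the whole interval lay within a 2-fold difference. The libraries of 2W and 6W did not overlap in 61 members, 27 higher and 34 lower at 6W, against 45.7% of all rows (23.2% higher and 22.5% lower). Scaled by mRNA and lncRNA counts together, 14 were higher and 57 lower, against 13.6% and 34.5% of all rows. For 1 transcript, 2 libraries against 2 give an exact permutation p of 0.333 or more (two-sided).

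From 6W to 3M, 4 members met the study threshold in edgeR, none had an adjusted p under 0.05 in that test, and 8 had one in DESeq2. Ranks 15 and 88 were higher at 3M and ranks 44 and 97 were lower, which was 4 of 100 members against 5.08% of all rows tested (2.35% higher and 2.73% lower). No member had an adjusted p under 0.05 in edgeR (0.00% of all rows). An unadjusted p under 0.05 was found in 17 members, against 8.48%. The 8 members of DESeq2, which were ranks 3, 14, 15, 21, 31, 72, 94 and 97, compare with 1.55% of all rows, and edgeR without a filter on low counts gave an adjusted p under 0.05 to 11 (1.86% of all rows in that fit). This comparison shares the 6W libraries with the one above.

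Rank 15, ENSMUST00000174808, of 656 nt, was the most abundant of these 4. It stood at 4329 and 5485 CPM at 2W, 4332 and 3752 CPM at 6W, and 8633 and 8104 CPM at 3M. The 3M libraries were close to each other and above the other 4. For 3M against 6W the log2 fold change was 1.05 (SE 0.17, adjusted p = 0.301 in edgeR and 2.7e-06 in DESeq2), and for 3M against 2W it was 0.77 (SE 0.17, adjusted p = 0.238 and 0.00115). Per length, its means were 539 FPKM at 2W, 369 FPKM at 6W and 842 FPKM at 3M.

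Rank 97, ENSMUST00000217449, of 2115 nt, had the widest range of the members that were counted in every library. It stood at 1175 and 726 CPM at 2W, 1283 and 1183 CPM at 6W, and 226 and 353 CPM at 3M. Both 3M libraries were below the other 4. The log2 fold change was -2.09 (SE 0.33, adjusted p = 0.289 in edgeR and 2.7e-06 in DESeq2) for 3M against 6W and -1.72 (SE 0.32, adjusted p = 0.196 and 0.000132) for 3M against 2W.

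In the other members past that threshold the 3M and 6W libraries did not overlap either, but the 2W libraries were far apart. Rank 44, ENSMUST00000091130, of 1488 nt, stood at 2992 and 700 CPM at 2W, 2618 and 3336 CPM at 6W, and 588 and 1130 CPM at 3M. The libraries of 2W lay at opposite ends, 1 with the 6W libraries and 1 with the 3M libraries. Its log2 fold change of 3M against 6W was -1.79 with an SE of 0.71 (adjusted p = 0.584 in edgeR). With only the 4 libraries of these ages in the edgeR fit it was -1.81 with an SE of 0.37 (adjusted p = 0.345). Rank 88, of 3689 nt, stood at 591 and 1059 CPM at 2W, 516 and 671 CPM at 6W, and 1460 and 1004 CPM at 3M, with a log2 fold change of 1.05 (SE 0.35, adjusted p = 0.564). Its lower 3M library was below the higher 2W library.

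The count of members past the study threshold depended on single libraries. It was 11 without 3M replicate 2, 2 without 3M replicate 1, 3 without 6W replicate 1 and 1 without 6W replicate 2, against 9.03%, 4.29%, 4.35% and 4.23% of all rows in the same fits. Rank 97 was past the threshold in each of these fits, and rank 15 in each except the one without 6W replicate 2, where its log2 fold change was 0.94.

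Among the first 10 members, ranks 3, 4, 6 and 7 had an unadjusted p under 0.05 in this comparison. Rank 4 stood at 13338 and 14843 CPM at 2W, 10110 and 10625 CPM at 6W, and 18519 and 13830 CPM at 3M, with a log2 fold change of 0.64 (SE 0.18, adjusted p = 0.487). Its 6W libraries were the lowest. Rank 6 stood at 11954 and 8618 CPM at 2W, 14289 and 15195 CPM at 6W, and 7959 and 10848 CPM at 3M, with a log2 fold change of -0.65 (SE 0.23, adjusted p = 0.572). Here the 6W libraries were the highest. Rank 7 was highest at 6W in CPM, though not in FPKM, with a log2 fold change of -0.45 (SE 0.16, adjusted p = 0.564).

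Over all members, the log2 fold changes of 3M against 6W had a median of 0.07 against 0.01 over all rows, and 58 were above 0. In 75 members the absolute value was under 0.5, against 54.8% of all rows. The libraries did not overlap in 56 members, 33 higher and 23 lower at 3M, against 43.4% (21.5% higher and 21.9% lower). Scaled by total lncRNA counts, 19 were higher and 30 lower, against 788 and 1121 of the 4647 rows.

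From 2W to 3M, the whole span of ages, 2 members met the study threshold against 6.52% of all rows (3.53% higher and 2.99% lower), and again no member had an adjusted p under 0.05 in edgeR (0.00% of all rows). Rank 29 was higher and rank 97 lower at 3M. An unadjusted p under 0.05 was found in 10 members (9.23% of all rows), and an adjusted p under 0.05 in DESeq2 in 7 (2.54%), which were ranks 11, 15, 16, 29, 69, 94 and 97, and in edgeR without a filter in 6 (1.89% of all rows in that fit). The libraries of 2W and 3M did not overlap in 31 members, 16 higher and 15 lower at 3M, against 37.8% of all rows (19.3% higher and 18.5% lower), whereas 12 were higher and 24 lower when scaled by total lncRNA counts (14.1% and 23.5% of all rows). Scaled by mRNA and lncRNA counts together, 11 were higher and 32 lower (13.6% and 24.6%). Leaving out 2W replicate 2 raised the count past the study threshold from 2 to 6 (7.45% of all rows in that fit), and the other single libraries gave 2 or 3 (5.54% to 7.81%).

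Rank 29, ENSMUST00000153847, of 727 nt, was higher at each later age. It stood at 1416 and 1920 CPM at 2W, 2176 and 2674 CPM at 6W, and 3702 and 4816 CPM at 3M. In CPM no library of one age overlapped with those of another. From 2W to 3M the log2 fold change was 1.35 (SE 0.24, adjusted p = 0.168 in edgeR and 2.3e-05 in DESeq2), and it lay between 1.13 and 1.59 when single libraries were left out. Per length it was 135.9 and 195 FPKM at 2W, 179 and 220 FPKM at 6W, and 369 and 391 FPKM at 3M, so that on this scale the ages of 2W and 6W overlapped.

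Rank 94, of 4255 nt, had the smallest p over the whole span. It stood at 1053 and 1205 CPM at 2W, 906 and 849 CPM at 6W, and 611 and 553 CPM at 3M. The ages followed each other downwards with no overlap. Over that span the log2 fold change was -0.96 (SE 0.15, adjusted p = 0.141 in edgeR and 4.1e-07 in DESeq2), just inside a 2-fold difference. It was past the study threshold at -1.08 when scaled by total lncRNA counts and at -1.11 when scaled by mRNA and lncRNA counts together, and also without 2W replicate 1 (-1.07) and without 3M replicate 1 (-1.03). Rank 69, TCONS_00122463, an assembled transcript of 16527 nt, had the same order, from 1358 and 1464 CPM at 2W over 1127 and 1048 CPM at 6W to 946 and 880 CPM at 3M, with a log2 fold change of -0.63 (SE 0.14, adjusted p = 0.238 in edgeR and 0.000149 in DESeq2). In FPKM its 6W and 3M libraries overlapped, while those of rank 94 did not.

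Several summed marker levels in the mRNA counts of these libraries moved over the same ages. The 6 adipocyte genes, all found in the table and none at 0 in every library, summed to 35.8 and 38.0 CPM at 2W, 109 and 111 CPM at 6W, and 232 and 136 CPM at 3M. The 6 myeloid genes summed to 267 to 299 CPM at 2W, 598 to 641 CPM at 6W and 660 to 701 CPM at 3M, and the 6 B cell genes to 339 to 421, 577 to 645 and 673 to 693 CPM. The 6 genes of cycling cells went the other way, from 3585 to 3684 CPM at 2W over 3037 to 3055 CPM at 6W to 2102 to 2588 CPM at 3M. The 10 genes of immature thymocytes, the main cells of the organ, summed to 14978 and 16907 CPM at 2W, 14627 and 14491 CPM at 6W, and 12716 and 12762 CPM at 3M, and the 8 thymic epithelium genes to 1425 and 1281, 1527 and 1484, and 1575 and 1810 CPM. The 6 T cell genes summed to 3536 and 3331 CPM at 2W, 3561 and 3635 at 6W, and 2694 and 3072 at 3M. The 6 fibroblast genes summed to 440 and 489, 513 and 463, and 392 and 307 CPM. The 6 skeletal muscle genes stood at 14.6 to 20.7 CPM over the libraries. The part of any of these cell types in the levels of ranks 29, 69 and 94 was not tested. The 6 red blood cell genes stood at 2219 CPM in 3M replicate 2 against 404 to 781 CPM in the other libraries, and rank 1 was highest in that same library, which was not tested either.

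**Figure D3:**
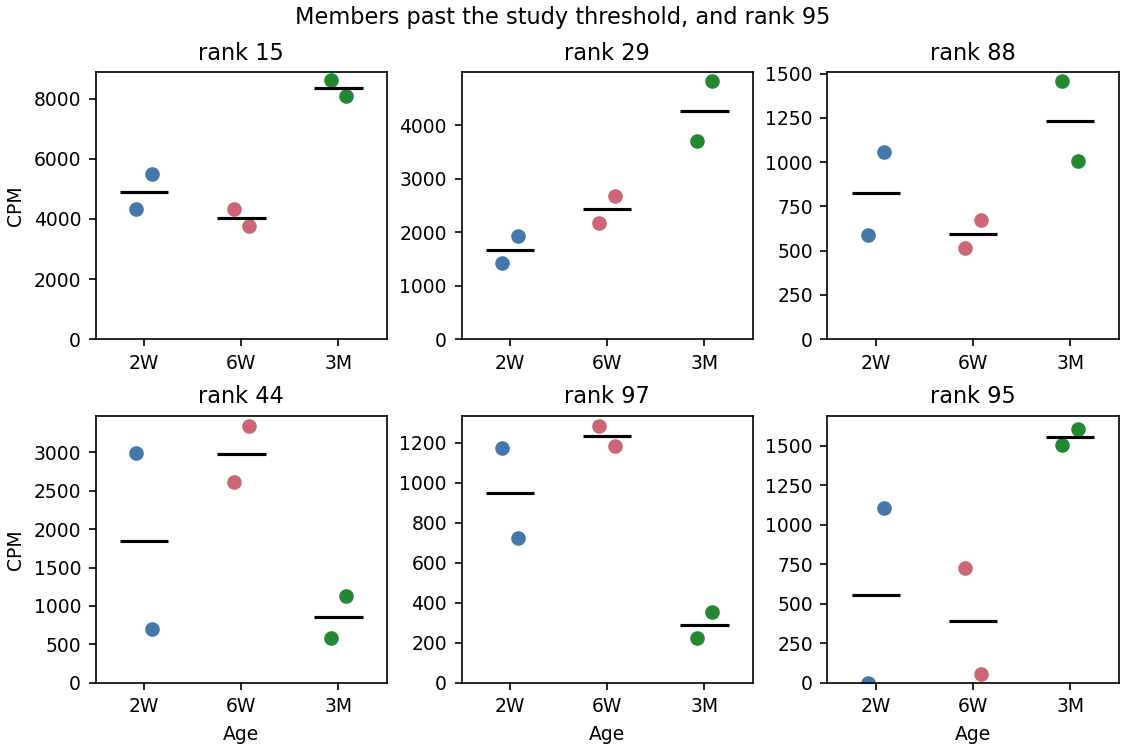
CPM (y axis, starting at 0) by age (x axis) for the 5 members past the study threshold in any comparison and for rank 95, with 1 point per library and a line at the mean of each age. By their means, ranks 15, 29 and 88 were highest and ranks 44 and 97 lowest at 3M, while the libraries of rank 95 stood at 0 and 1110 CPM at 2W.

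Taking the means of the 3 ages in order, 33 members were highest at 6W and 42 were lowest at 6W, against 34.6% and 32.4% of all rows. The other 25 had means that went up or went down at both steps, against 32.9%. Non-overlapping libraries at each step upwards were found in 3 members (2.22% of all rows) and downwards in 3 (2.24%). Both 6W libraries lay above the other 4 in 15 members (10.2%) and below them in 18 (9.66%). These counts were 18 and 8 when scaled by total lncRNA counts (10.2% and 7.96% of all rows) and 10 and 27 when scaled by mRNA and lncRNA counts together (5.79% and 13.6%). In 44 members the largest difference between mean levels of ages exceeded the largest gap between replicates, against 34.8% of all rows.

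The members high and low at 6W differed in length. The 15 members with both 6W libraries on top had a median length of 744 nt, and 8 of them were under 1000 nt. The 18 members with both 6W libraries at the bottom had a median length of 3596 nt, and none was under 1000 nt. Under the 3 other scalings the first median was 703 to 1000 nt, with 6 to 9 members under 1000 nt, and the second 3530 to 4344 nt, with 0 to 2. Ranks 3, 5, 9 and 31 are among the first group. Rank 5, the transcript of 281 nt, stood at 13525 and 8189 CPM at 2W, 15767 and 16148 CPM at 6W, and 6912 and 14614 CPM at 3M. Its 6W libraries were the highest, but at 2W and 3M the replicates were far apart, and the log2 fold change of 6W against 2W was 0.56 (SE 0.41, adjusted p = 0.717).

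Short members were lowest in 2W replicate 2 and 3M replicate 1. Against its own mean over the libraries, the median short member (under 1000 nt, n = 15) stood at -0.36 on the log2 scale in 2W replicate 2 and at -0.37 in 3M replicate 1, but at -0.07 in 2W replicate 1, 0.26 in 3M replicate 2, and 0.32 and 0.35 in the 6W libraries. Of the 15, 11 and 12 were below their own mean in the first pair of libraries, 9 in 2W replicate 1, 4 and 2 at 6W, and 2 in 3M replicate 2. The 6 members over 10000 nt stood at 0.11 and 0.15 in 2W replicate 2 and 3M replicate 1, at -0.03 and -0.06 at 6W, at 0.04 in 2W replicate 1 and lowest, at -0.18, in 3M replicate 2.

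In the mRNA transcripts of these libraries, short transcripts were also lowest in 2W replicate 2 and 3M replicate 1 and highest at 6W. The 1071 mRNA transcripts under 1000 nt with a mean count of 100 or more had medians of -0.14 and -0.21 in 2W replicate 2 and 3M replicate 1 and of 0.12 and 0.19 at 6W, with 0.07 in 2W replicate 1 and 0.01 in 3M replicate 2. The 664 mRNA transcripts over 10000 nt had 0.21 and 0.27 in the first pair, -0.13 and -0.15 at 6W, 0.07 in 2W replicate 1 and -0.06 in 3M replicate 2. The order of 2W replicate 1 and 3M replicate 2 among the short transcripts was opposite in members and mRNAs. Over the 1841 tested lncRNA rows under 1000 nt the shifts were smaller, at -0.04 in 2W replicate 2, 0.00 in 3M replicate 1, 0.15 and 0.13 at 6W, 0.08 in 2W replicate 1 and 0.13 in 3M replicate 2, so that 6W did not stand apart there. Over the 100 members, the Spearman correlation of length with the difference of mean log2 levels was -0.32 for 6W against 2W, 0.23 for 3M against 6W and -0.04 for 3M against 2W, as a description of transcripts that share the same libraries. The part of transcript length in the age differences of single members was not tested.

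**Figure D4:**
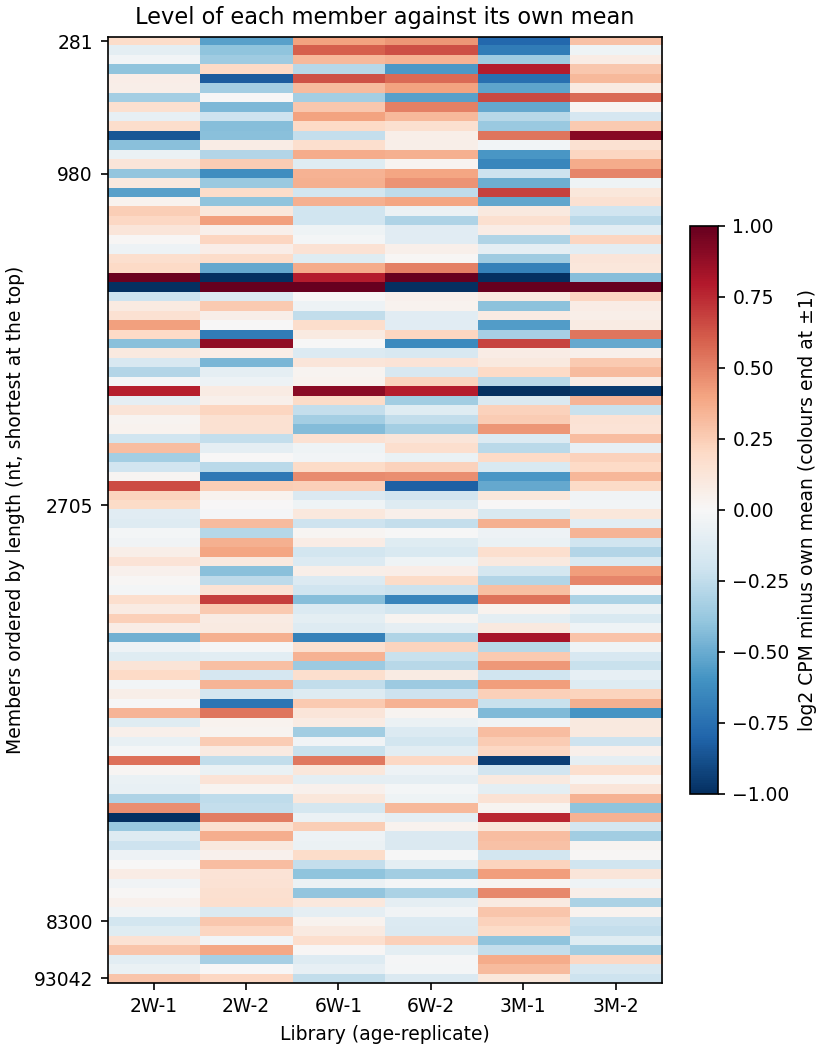
Log2 CPM of each member minus its own mean over the 6 libraries (colour, ending at -1 and 1) for the 6 libraries (x axis), with members ordered by length from 281 nt at the top to 93042 nt at the bottom (y axis). The shortest members are mostly blue in 2W replicate 2 and 3M replicate 1 and red in the 6W libraries.

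The likeness of 2W replicate 2 and 3M replicate 1 was seen in many members. In 50 of the 100 members, 2W replicate 2 and 3M replicate 1 were together the lowest pair (24 members) or the highest pair (26 members) of the 6 libraries. The same was true of 23.4% of all rows tested. The pair of 6W libraries did so in 33 members (20.2%), and the pairs of 2W and of 3M libraries in 18 each (18.9% and 18.5%).

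The replicates of 6W agreed most. The median absolute log2 gap between replicates over the members was 0.23 at 2W, 0.09 at 6W and 0.40 at 3M, against 0.47, 0.38 and 0.52 over all rows tested. At 3M the signed gap went with length, short members being mostly higher in replicate 2, with a Spearman correlation of -0.47 over the 100 members. The correlation was 0.22 at 2W and -0.08 at 6W. These values describe the libraries, since all members share the same 2 libraries at each age.

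**Figure D5:**
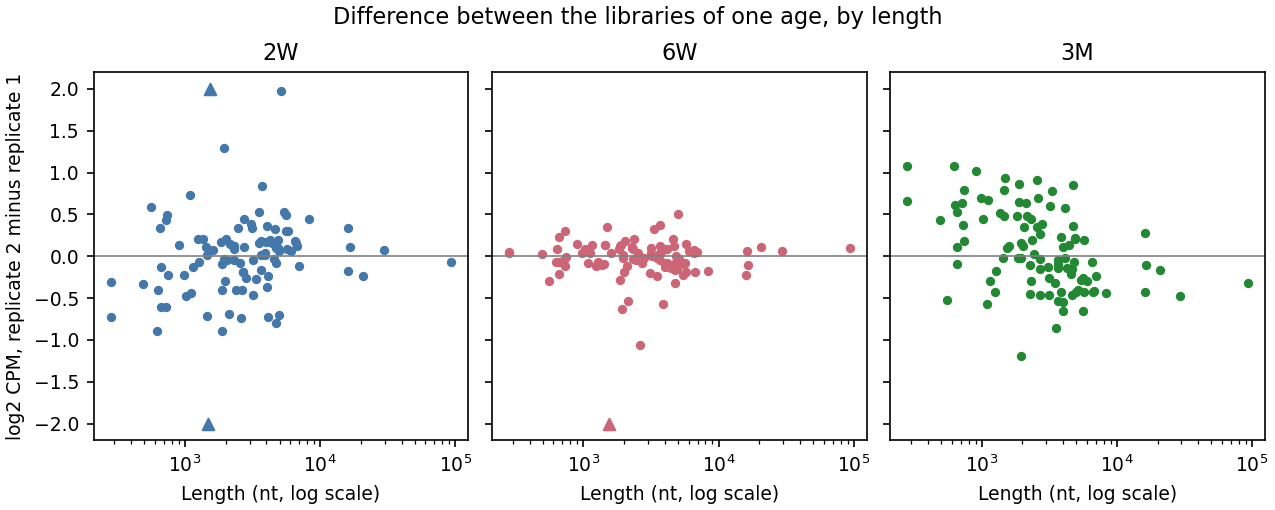
Log2 CPM of replicate 2 minus replicate 1 (y axis) against transcript length in nt (x axis, log scale) for each member, with 1 panel per age and triangles at the border for values beyond the axis. At 6W most points lie close to 0. At 3M the points of short transcripts lie mostly above 0 and those of the longest mostly below 0, with exceptions at both ends.

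A few members were split between replicates rather than between ages. Rank 95, of 1540 nt, had estimated counts of 0 and 1497 at 2W, 950 and 84.3 at 6W, and 1970 and 2224 at 3M. It was the only member with a 0, and that 0 allows up to 2.42 CPM at 3 counts, against 1110 CPM in the other 2W library. Its log2 fold change of 3M against 6W had an SE of 2.15 (adjusted p = 0.835 in edgeR). In edgeR without a filter on low counts the SE was 0.25 and the adjusted p 1.7e-12, although the 6W libraries are as far apart as given above. That fit also called rank 44 in this comparison (adjusted p = 1.5e-12). Of the member counts above 0, 89.8% had a remainder in the deposited decimals, against 61.8% of the counts above 0 over the table. Such remainders arise when a program divides reads among transcripts that share sequence. How reads were divided between such transcripts can move the level of a single one, and the part of it in ranks 44 and 95 was not tested.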

How the data were processed

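Total RNA of 6 thymuses was sequenced after depletion of ribosomal RNA. The authors deposited estimated counts, which need not be whole, and FPKM for each lncRNA and mRNA transcript. The submitters' processing notes name Bowtie 0.12.2 and the build mm8 without a role. The quantification program, and whether it used the strand, are not given in the sources used here. The labels gave the age of each library, and ranks follow the count sum. Lengths were computed from counts, FPKM and the library total of both tables, and differed by at most 0.0888% between libraries over 193 lncRNA rows.

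Estimated counts were rounded and tested in R 4.3.3 with edgeR 4.0.16 (quasi-likelihood F test, TMM factors, age as the only term, all 6 libraries, prior count 0.125) on the 4647 rows kept by filterByExpr, which kept all 100 members. Adjustment of p-values followed Benjamini and Hochberg and ran over these rows. The study threshold joins an unadjusted p under 0.05 to a log2 fold change above 1 or below -1. The study used it with DESeq on other RNA classes, and it was applied here to edgeR results of lncRNA rows. P-values measure the spread between 2 biological replicates per age. Alternatives were DESeq2 1.42.0, other scalings, no filter, fits of 4 libraries, a replicate block and each library left out. Total lncRNA counts per library were 1238252 to 1594491. The Wilson intervals of shares and the limit for a count of 0 cover counting error only. The 95% intervals of log2 fold changes were computed from the SE of the edgeR fit, which includes the spread between replicates. Python 3.11.15 (pandas 2.3.3, numpy 2.4.6, scipy 1.17.1) was used for tables and the intervals of shares.

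The members, lists, tests and alternatives were chosen with earlier results of these data known. Named are the first 20 members, those past the study threshold and the rows at the edge of the ranking. Ranks 21, 31, 69, 72, 87, 94 and 95 were named after their values were seen. At most 2 identifiers are printed for members that were higher and 2 for those lower past the study threshold. Lists of known lncRNA names could not be applied, since no row carries a name. Nucleotide sequences of the members were not analysed here. Small RNA and circRNA tables were not used here.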

Additional observations from a re-analysis of the deposited data

How the results depend on the processing

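An adjusted p under 0.05 was given to no member by edgeR under any other scaling, in fits of 4 libraries, with the replicate block or without any single library. DESeq2 gave it to 1 member for 6W against 2W, 8 for 3M against 6W and 7 for 3M against 2W, and edgeR without a filter on low counts to 4, 11 and 6. Members past the study threshold for 6W against 2W numbered 1 with total counts and 1 with scaling by mRNA and lncRNA together, and 0 to 6 when single libraries were left out (6 without 2W replicate 1, 2 without 2W replicate 2 and 1 without 6W replicate 1). For 3M against 6W they numbered 1 to 11 without single libraries, and for 3M against 2W 2 to 6, and 4 without a filter. A lone library was assumed to vary like the others. The deviations of same-numbered libraries correlated at -0.14 to 0.03 over all rows tested. Over the 100 members they correlated at -0.83 for 2W and 6W, -0.31 for 2W and 3M and 0.05 for 6W and 3M. These members include rank 95, with log2 gaps between replicates of 11.1 at 2W and -3.64 at 6W. With 2 libraries per age the sign of such a correlation depends on the numbering, so these values cannot tell whether libraries were paired. The replicate block gave 0, 3 and 2 members past the study threshold.

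Scaling by mRNA and lncRNA together moved the median log2 fold change of all rows to -0.25 for 6W against 2W, 0.11 for 3M against 6W and -0.15 for 3M against 2W, and total counts moved the last to -0.13. Under the first scaling the log2 fold change of 6W against 2W turned to -0.11 for rank 1 and -0.24 for rank 2, and under total counts to -0.058 for rank 2. Without single libraries, rank 1 ranged from -0.18 to 0.61 for 3M against 2W and from -0.34 to 0.45 for 3M against 6W, in both lowest without 3M replicate 2 and highest without 3M replicate 1, and it was -0.06 for 3M against 6W without 6W replicate 1. For 6W against 2W it ranged from -0.010 without 6W replicate 2 to 0.32 without 6W replicate 1, and rank 2 from -0.035 without 2W replicate 2 to 0.064 without 2W replicate 1. The cause was not tested, and none of these differences passed a test. Members whose libraries do not overlap between 2 ages stayed within 1.5 times in total under the 3 other scalings, which were chosen after seeing the data, but not by direction, which went from 27 higher and 34 lower at 6W against 2W to 14 and 57 with mRNA and lncRNA together.

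The share of the members, 73.5% as the mean of the libraries and 72.9% to 73.9% without single libraries, was 62.7% of the summed FPKM, 4.89% of lncRNA and mRNA counts together and 60.6% of the counts left without rank 1. Ranking by FPKM kept 65 members. Gene sums were not run, because the file names no gene for these rows. With 2 libraries per age, a log2 difference under 0.476 lies within the 95% interval of the median member.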

Other observations

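Rows that were not members by counts stood as high per length as many members. The 35 rows that only the ranking by FPKM placed among the first 100 were 383 to 1426 nt long, and the highest of them had a mean of 121 FPKM. The 100 rows with the largest FPKM sum held 67.8% to 73.9% of the lncRNA counts of a library, against 71.7% to 76.4% for the members.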
